A study of Homo sapiens with 12 samples.

Results

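The regions described here are detained-intron features named for an annotated transcript as well. The authors' 2 tables of detained introns, tested with DEXSeq, list 1549 features for MTAP-null cells and 258 for MTAP-WT cells, and every feature has at least 1 detained-intron name. A feature was taken as a member when its list of names also held a RefSeq-type name, that is the prefix NM, NR, XM or XR, or the word rna followed by digits. The rule found 156 members among the 1549 listed for MTAP-null and 42 among the 258 for MTAP-WT. The 198 rows were 184 distinct regions, since 14 members were listed in both genotypes. The other 1393 and 216 features, which had detained-intron names alone, were the comparison. The rule read names and no measured value, but both tables hold only features with an adjusted p under 0.05 in the authors' own test of usage, so every count below describes features chosen on these libraries.

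The cells were HCT116, an established human colon cancer line, in an engineered form without the gene MTAP (MTAP-null) and in the form that keeps it (MTAP-WT). Each form was treated with AGI24512, labelled as an inhibitor of the methionine adenosyltransferase MAT2A, or with the solvent DMSO, with 3 libraries in each of the 4 groups. All groups share the HCT116 background, and the labels give no dose, no duration and no number of clones. They do not say that libraries of a group were separate cultures, so the p-values rest on library-to-library spread that may be only technical.

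Detained introns are introns left unspliced in polyadenylated transcripts that stay in the nucleus, as opposed to retained introns that reach the cytoplasm. Splicing depends on snRNP proteins and splicing factors that carry methylated arginines, for which S-adenosylmethionine, the product of MAT2A, is the methyl donor. A stretch that is intron in one transcript can be exon in another: an alternative last exon, a variable cassette exon, an exon extended by an alternative splice site, or a retained intron written into a transcript model. The names separate features of this sort only in part, as the annotation below shows.

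The following 6 sequences show the kinds of stretch the set holds. They were read from the GENCODE 29 transcripts (GRCh38) on the gene's strand, with the member in capitals and 20 bases of the same transcript on each side in lower case. All 5 from protein-coding genes lie in coding sequence, and the LINC00339 stretch is in a non-coding RNA.
CD44: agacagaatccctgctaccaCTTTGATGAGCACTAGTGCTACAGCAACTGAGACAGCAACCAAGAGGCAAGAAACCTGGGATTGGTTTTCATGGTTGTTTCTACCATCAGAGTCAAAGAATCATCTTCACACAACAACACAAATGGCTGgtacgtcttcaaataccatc
DNAJC4: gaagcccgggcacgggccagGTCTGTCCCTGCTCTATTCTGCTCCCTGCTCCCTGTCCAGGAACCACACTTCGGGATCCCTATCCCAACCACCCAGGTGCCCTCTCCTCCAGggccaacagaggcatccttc
TIMM17B: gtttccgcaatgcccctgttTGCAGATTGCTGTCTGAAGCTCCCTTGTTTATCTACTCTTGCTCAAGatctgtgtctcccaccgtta
ZCCHC11: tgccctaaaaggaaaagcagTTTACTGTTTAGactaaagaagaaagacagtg
ABLIM1: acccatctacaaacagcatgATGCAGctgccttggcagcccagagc
LINC00339: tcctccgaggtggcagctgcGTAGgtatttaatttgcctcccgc

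The CD44 member (chr11:35196746-35196874, plus strand, 129 bp) is a whole internal exon whose width is a multiple of 3. CD44 is the cell-surface receptor for hyaluronan, known for its variable exons. The DNAJC4 member (chr11:64233981-64234072, plus strand, 92 bp), in a gene for a J-domain protein, is an annotated intron from GT to AG that another transcript keeps as exon. TIMM17B encodes a subunit of the mitochondrial inner membrane translocase, and its member (chrX:48895455-48895501, minus strand, 47 bp) lies inside an exon of one transcript and an intron of another. Other stretches are slivers inside an exon, namely 12 bp in the uridylyltransferase gene ZCCHC11 (chr1:52436964-52436975, minus strand), 6 bp in ABLIM1, an actin-binding LIM protein gene (chr10:114448021-114448026, minus strand), and 4 bp in LINC00339 (chr1:22025640-22025643, plus strand).

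Against GENCODE 29, 107 of the 156 MTAP-null members lay wholly inside an annotated exon, compared with 217 of the 1393 features with detained-intron names alone. In MTAP-WT the numbers were 34 of 42 and 37 of 216. Only 26 MTAP-null members and 10 MTAP-WT members matched an annotated intron from end to end, against 1042 and 150 of the comparison features. Of the 29 distinct members that were both an annotated intron and exon of another transcript, 28 began with GT and ended with AG, and 1 ran from GC to AG. In MTAP-null, 58 members lay in a last exon of some transcript, 38 in an internal exon, 23 in a first exon and 9 in a single-exon transcript, and a member can fall in several of these. Most held no coding base: 106 of the 156 MTAP-null members and 29 of the 42 MTAP-WT members, with 12 and 3 coding throughout.

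Members were short. The median width was 390 bp in MTAP-null (range 3 to 6474) against 2492 bp for the comparison features, and 461 bp in MTAP-WT (range 6 to 3428) against 3054 bp. The median of the mean normalised count per feature was 51.9 for members and 43.4 for the others in MTAP-null, and 123 and 54.5 in MTAP-WT. Per kilobase the medians were 169 and 18.2 normalised counts in MTAP-null and 277 and 16.9 in MTAP-WT, but this scale itself falls with width. Within classes of width the MTAP-null medians per kilobase were 618 for members and 409 for the others up to 100 bp, 275 and 198 up to 300 bp, 151 and 51.3 up to 1000 bp, and 49.7 and 19.9 up to 3000 bp. In MTAP-WT they were 1488 and 1466, 334 and 400, 350 and 88.0, and 154 and 17.8 in the same classes. The widest member was the 6474 bp feature of MRPL19, a mitochondrial ribosomal protein gene, followed in MTAP-null by ZNF83 with LOC101928641 (3961 bp), GALNT18 (3428 bp), TMPPE with GLB1 (3373 bp) and PARD3 (3201 bp). In MTAP-WT the widest were GALNT18, TAB3 (2883 bp), INO80C (2739 bp), RDX (2432 bp) and RIF1 (2119 bp).

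**Figure D1:**
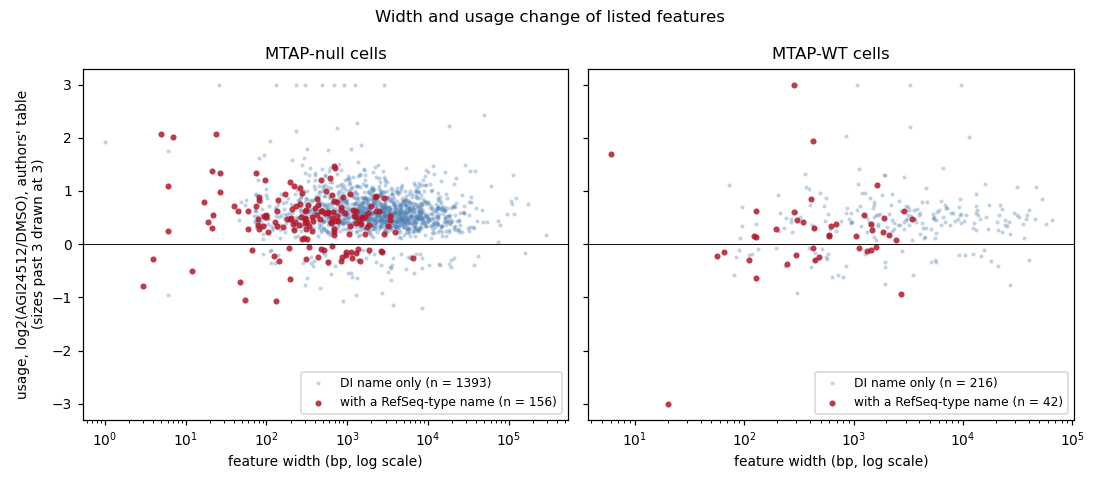
Each point is a listed feature, with its width in bp on a log axis and the authors' log2 usage change, AGI24512 over DMSO, on the vertical axis. Red points are members and blue points are features with detained-intron names alone. Members lie to the left in both genotypes, with medians of 390 and 461 bp against 2492 and 3054 bp, and 9 MTAP-null and 5 MTAP-WT features past 3 in size are drawn at 3.

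A detained intron can be divided into a piece with a RefSeq-type name and a piece without. In MTAP-null, 42 detained introns had listed pieces of both kinds, with an intron that has several detained-intron names counted once. The piece with a transcript name had more normalised counts per kilobase in 36 of the 42, with medians of 231 and 49.0, and widths were not matched. Usage was higher with AGI24512 for both pieces in 34 introns and lower for both in 4, and in 4 the member was lower while the rest was higher. The member's log2 count change was above that of the rest in 22 introns and below it in 20. In MTAP-WT there were 6 such introns, with the member denser in 6 of 6.

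Summed counts over the listed features, which are not the sequencing depth, were 113064 to 214530 in the MTAP-null libraries and 50919 to 65080 in those of MTAP-WT. Members held 15.8 to 19.1% of them with AGI24512 and 19.7 to 21.1% with DMSO in MTAP-null, and 24.9 to 25.4% and 26.1 to 26.3% in MTAP-WT. Some libraries stood apart: by a chi-square of counts per degree of freedom, AGI24512 replicate 1 of MTAP-null differed from its fellows by 3.49 and 5.25 while those 2 differed by 1.59. In MTAP-WT, replicate 1 of both treatments differed from its fellows by 2.89 to 4.25, against 1.52 and 1.56 for the others. One MTAP intron, not a member, was listed in MTAP-null with 87 to 273 counts per library. Which part of MTAP the line lacks is not given, so this does not check the genotype label. Of the epithelial and other cell type markers, KRT8 alone was listed, so the identity of the cells could not be checked further.

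Whether members moved as the other detained introns did was the first question. In the authors' deposited table, 125 of the 156 MTAP-null members had higher usage with AGI24512 (80.1%, exact 95% binomial interval 73.0 to 86.1) and 31 had lower usage, beside a background of 93.5% higher among all listed features and 1324 of 1393 among features with detained-intron names alone. In MTAP-WT, 27 of 42 members had higher usage (64.3%, interval 48.0 to 78.4), beside 79.1% of all listed features and 81.9% of the comparison. Members share genes and libraries, so these intervals cover counting error only, and the tables' own selection was by usage. No test of the difference between the sets was made.

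In MTAP-null the members' share was the lower one in each class of width. Up to 100 bp it was 28 of 34 against 38 of 40, up to 300 bp 83.9% against 92.9%, and up to 1000 bp 79.6% against 93.6%. Up to 3000 bp it was 24 of 32 against 95.9%, and above that 4 of 5 against 95.3%. By read level in MTAP-null the shares lay closer at low counts than at high ones. Below 20 mean normalised counts, 35 of 37 members (94.6%) and 97.9% of the comparison had higher usage. Above 300, usage was higher in 9 of 23 members (39.1%) and 59 of 76 comparison features (77.6%). In MTAP-WT the shares above 300 were close, with higher usage in 7 of 13 members (53.8%) and 14 of 28 comparison features. In the lower classes of MTAP-WT the members' share was the lower one. It was 8 of 10 against 96.4% below 20 and 1 of 2 against 87.2% from 20 to 50. From 50 to 100 it was 5 of 7 against 90.5%, and from 100 to 300 it was 6 of 10 against 69.8%. By width in MTAP-WT, members had 1 of 4 against 57.1% up to 100 bp and 60.0% against 66.7% up to 300 bp. Up to 1000 bp they had the higher share, 9 of 12 against 63.9%, and up to 3000 bp the lower, 66.7% against 89.6%. Above that the only member had higher usage, against 88.2%.

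**Figure D2:**
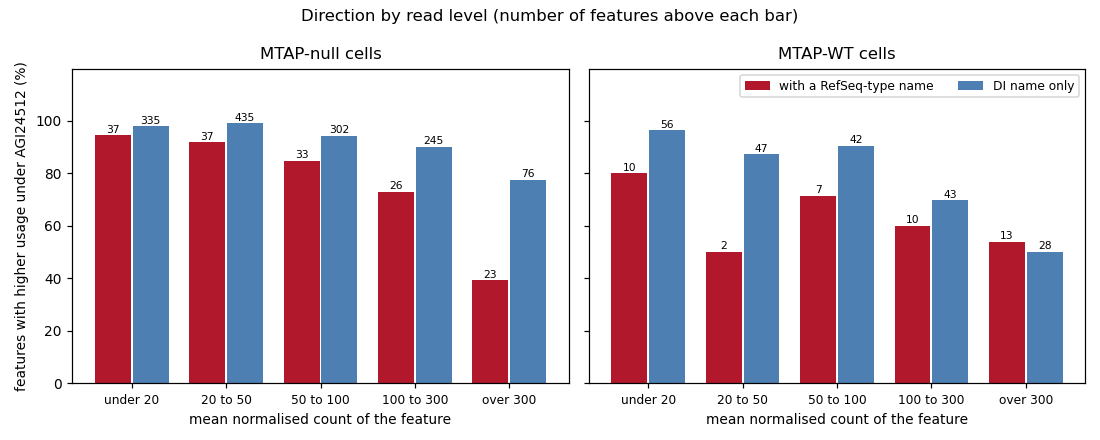
Bars give the percentage of listed features with higher usage under AGI24512 in the authors' table, by class of mean normalised count, for members (red) and features with detained-intron names alone (blue). The number of features stands above each bar. In MTAP-null the bars of the members fall from 94.6% below 20 counts to 39.1% above 300, and those of the comparison from 97.9% to 77.6%.

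The shares were also set out by place in the annotation. In MTAP-null, comparison features wholly inside a GENCODE exon had higher usage in 203 of 217 cases (93.5%), members inside one in 83 of 107 (77.6%), and members not inside one in 42 of 49 (85.7%). In MTAP-WT the comparison features inside an exon were higher in 22 of 37 (59.5%), close to the 21 of 34 members (61.8%). Members with a single RefSeq-type name were higher in 88 of 102 cases in MTAP-null (86.3%), and those with several in 37 of 54 (68.5%). The drop was not seen in MTAP-WT, with 19 of 30 (63.3%) and 8 of 12 (66.7%). In both genotypes members with several names had the higher median count, and the shares were not compared at equal read level. Members with a curated NM name were higher in 45 of 63 in MTAP-null (71.4%) and 14 of 20 in MTAP-WT (70.0%). All members stood at 80.1% and 64.3%. By place in a transcript, usage in MTAP-null was higher for 16 of 23 members in first exons and 31 of 38 in internal exons. In last exons it was 44 of 58. The MTAP-WT numbers were 6 of 12, 6 of 10 and 12 of 17 in the same order.

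Read counts were then tested directly with edgeR, scaled by the size factors recovered from the deposited base means, and a member is said to have risen or fallen only where its adjusted p was under 0.05. In MTAP-null, 101 members rose, 19 fell and 36 were not called, beside a background of 77.6% higher and 4.65% lower and 82.2% in either direction over all 1549 features; the members' own shares were 64.7% higher and 12.2% lower. In MTAP-WT, 21 rose, 9 fell and 12 were not called, beside 70.5% higher, 14.3% lower and 84.9% in either direction of all 258 features. All 3 AGI24512 libraries lay above all 3 DMSO libraries for 104 MTAP-null members and below them for 23, beside 75.9% and 5.16% of all listed features. For MTAP-WT members the counts were 20 and 9, beside 69.4% and 14.3%. The median log2 change was 0.83 for members and 0.95 for all listed features in MTAP-null, and 0.37 and 0.73 in MTAP-WT. A change of the count mixes the level of the gene's RNA with the share of the feature.

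The directions depend on the scaling. Under edgeR's TMM factors, computed on the listed features themselves, the median of all listed features moved from 0.95 to 0.11 in MTAP-null and from 0.73 to 0.16 in MTAP-WT, and 20 members were higher and 46 lower in MTAP-null, 6 and 19 in MTAP-WT. Called shares over all listed features under TMM are not given, so these counts do not set members apart from the rest. The member medians under TMM were -0.02 and -0.20. A rise of a member named below is therefore a rise on the size factors of the authors' whole fit, and where TMM turns its sign this is said in the same sentence. Without AGI24512 replicate 1, which stood apart in MTAP-null, and with both replicate 1 libraries left out of either genotype, the counts of members called stayed within 1.5 times those above.

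The member with the largest rise among those of at least 50 mean normalised counts in MTAP-null lay in a last exon and is assigned to RCC1 and SNHG3 together, so its reads cannot be given to either gene. RCC1 encodes the nucleotide exchange factor of the GTPase Ran, and SNHG3 is a non-coding host of small nucleolar RNAs. This 431 bp feature (chr1:28508906-28509336) had 1663, 1803 and 2095 normalised counts with AGI24512 and 453, 473 and 435 with DMSO. The groups did not overlap, and the fold was 4.08 (log2 2.03 ± 0.10 SE, edgeR adjusted p = 1.13e-09; 1.18 under TMM).

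MBD1, which encodes a protein that binds methylated CpG, had 4 members, as did KDM5C with MIR6894. Its 427 bp member (chr18:50271042-50271468) had 137, 134 and 142 normalised counts with AGI24512 and 55.0, 51.5 and 45.4 with DMSO, a log2 change of 1.43 ± 0.18 (edgeR adjusted p = 3.18e-05). Its 170, 80 and 17 bp members rose by 2.21, 2.01 and 1.91. The 4 regions lie in the same gene and can share read pairs, so they are not 4 independent observations.

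The 8 largest rises in MTAP-null were taken among members of at least 50 mean normalised counts without overlap of groups. The other 6 of them were spread over genes of varied function. NARG2, a component gene of the little elongation complex, rose at a 2508 bp last-exon stretch from 35.2 ± 3.25 to 86.4 ± 21.2 normalised counts (SD, n = 3; log2 1.30). ARGLU1, which encodes an arginine- and glutamate-rich splicing and transcription cofactor, had 249, 483 and 571 normalised counts with AGI24512 and 156, 210 and 179 with DMSO at a 1815 bp intron (log2 1.26). The value of 249 is that of replicate 1, the library that stood apart. H2AFY, the gene of the histone variant macroH2A1, rose from 155 ± 18.0 to 371 ± 62.6 (log2 1.25), and GALNT18, a GalNAc transferase gene, from 44.8 ± 3.41 to 97.6 ± 11.3 (log2 1.12). THOC2, a scaffold of the THO complex of mRNA export, had 316, 331 and 322 against 171, 144 and 148 (log2 1.06 ± 0.14, edgeR adjusted p = 3.72e-05). CCNL1, the gene of cyclin L1, a partner of kinases that act in splicing, had 101, 168 and 182 against 56.8, 88.4 and 76.8 (log2 1.02). All 8 kept a positive sign under TMM, and 3 of them kept a call.

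Among MTAP-null members of at least 50 mean normalised counts, the largest falls began with the 4 bp sliver of LINC00339 shown above. It had 26.9, 31.7 and 39.1 normalised counts with AGI24512 and 77.8, 71.9 and 64.0 with DMSO, without overlap (log2 -1.13 ± 0.23, edgeR adjusted p = 0.000717). KRT8, the simple-epithelium keratin gene, fell from 165 ± 15.6 to 95.8 ± 19.9 (SD, n = 3; log2 -0.77) at a 197 bp annotated intron.

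ATP2C1, which encodes a Golgi calcium pump, had 551, 549 and 490 normalised counts with AGI24512 and 915, 861 and 927 with DMSO (log2 -0.77 ± 0.10, edgeR adjusted p = 2.39e-05). COA1, an assembly factor gene for cytochrome c oxidase, fell by 0.60. PAX8-AS1, an antisense RNA, fell by 0.59, and PIAS1, a SUMO ligase gene, fell by 0.53. The use of strand in counting is not given in the sources used here, so reads of PAX8-AS1 and its antisense partner cannot be told apart, and RPL15 has processed pseudogenes that could share reads. The members named here fell under TMM too, each with a call.

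**Figure D3:**
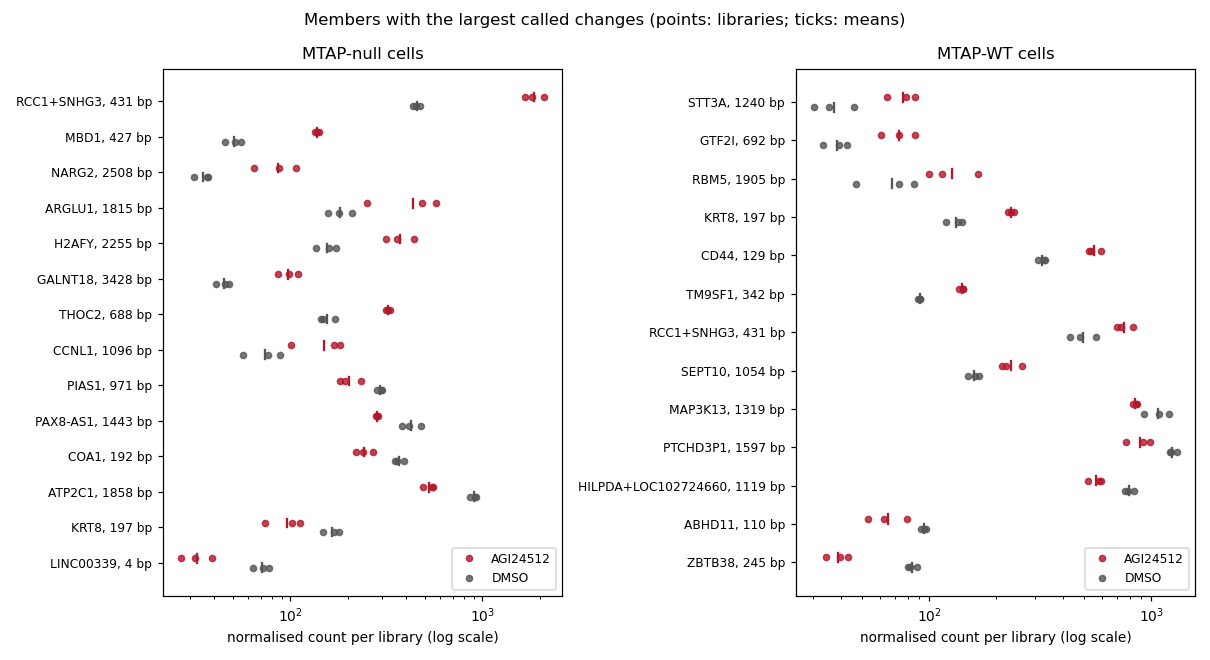
Points are normalised counts of single libraries on a log axis, red for AGI24512 and grey for DMSO, and short vertical lines are group means (n = 3), for members with the largest called changes and at least 50 mean normalised counts. It draws 8 rises and 6 falls of MTAP-null on the left and 8 rises and 5 falls of MTAP-WT on the right, of which SEPT10 turns negative under TMM; not every fall that the rule names is drawn. Only members whose 2 treatments do not overlap were drawn. The widest separation is RCC1 with SNHG3 in MTAP-null, at 1663 to 2095 against 435 to 473.

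In MTAP-WT the same limits were used, at least 50 mean normalised counts and no overlap of groups. Under them the 8 largest rises ran from 1.05 down to 0.55 on the log2 scale. STT3A, the gene of a catalytic subunit of the oligosaccharyltransferase, had 78.8, 64.8 and 86.0 normalised counts with AGI24512 and 30.3, 45.7 and 35.4 with DMSO at a 1240 bp last-exon stretch (log2 1.05 ± 0.20, edgeR adjusted p = 2.78e-06). GTF2I, a transcription factor gene with near-identical copies that can share reads, rose from 38.5 ± 4.81 to 73.5 ± 12.7 (log2 0.93). RBM5, a splicing regulator gene, had 166, 99.7 and 114 against 46.8, 85.2 and 72.9 (log2 0.91), where the highest and the lowest value are both replicate 1. KRT8 rose from 132 ± 11.2 to 234 ± 6.46 (log2 0.83), CD44 from 324 ± 11.3 to 552 ± 35.6 (log2 0.77), TM9SF1 by 0.63, RCC1 with SNHG3 by 0.63, and the septin gene SEPT10 by 0.55, which became -0.03 under TMM. Of these 8 rises 1 kept a call under TMM.

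Falls in MTAP-WT came to 6 members of at least 50 mean normalised counts, and each also fell under TMM. ZBTB38, a zinc finger gene of a methyl-CpG binding protein, had 34.3, 39.9 and 43.0 normalised counts with AGI24512 and 88.1, 80.0 and 82.3 with DMSO at a 245 bp internal exon (log2 -1.10 ± 0.20, edgeR adjusted p = 4.87e-07). The hydrolase gene ABHD11 fell by 0.54, and HILPDA, a lipid-droplet protein gene, fell by 0.49. The pseudogene PTCHD3P1 fell by 0.48 and the kinase gene MAP3K13 by 0.34. RDX, which encodes radixin, had 2720 ± 239 normalised counts with AGI24512 and 2083 ± 73.7 with DMSO (SD, n = 3) and rose by 0.39, which became -0.19 under TMM. RIF1, a gene of double-strand break repair and replication timing, rose by 0.50, which became -0.07 under TMM.

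The narrowest members often rest on few reads. In MTAP-null, the 3 bp member of SRSF10, a splicing factor gene, had 22.2, 26.1 and 14.0 normalised counts with AGI24512 and 69.0, 55.4 and 72.2 with DMSO (log2 -1.66 ± 0.26, edgeR adjusted p = 0.000165). The 6 bp member of ABLIM1 had 260 ± 25.4 and 203 ± 26.0 (SD, n = 3) and rose by 0.36, which became -0.47 under TMM; the call was lost without DMSO replicate 1 or 2. Raw counts of the 5 bp member of KDM5C with MIR6894 were 5, 3 and 6 with AGI24512 and 0, 1 and 0 with DMSO. In MTAP-WT, the 6 bp member of TMEM251 had 5, 9 and 4 raw counts against 0, 2 and 0. UCKL1, at 20 bp, had 0 in each AGI24512 library and 2, 5 and 3 with DMSO. INO80C, although 2739 bp wide, had 5, 7 and 2 against 13, 13 and 15.

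Where a gene had other listed features, the member was tested by edgeR's test of exon usage within a gene. The coefficient of that test is on the natural-log scale. It is the feature's change minus that of all listed features of the gene together, the feature itself included. In MTAP-null, 77 members could be tested and 6 were called, beside a background of 5.3% of 472 tested features, and in MTAP-WT 1 of 9, beside 7.69% of 39. COA1 gave the smallest adjusted p in this test. Its 192 bp last-exon member (chr7:43639257-43639448) had 270, 220 and 238 normalised counts with AGI24512 and 391, 358 and 352 with DMSO, while its 21370 bp intron piece went from 308 ± 3.72 to 625 ± 66.6. The member's log2 change was -0.60, against 1.02 and 0.93 for the other pieces of the gene. Its coefficient was -0.71 (within-gene test, adjusted p = 0.000267).

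SLC9B2, a sodium-proton exchanger gene, showed the same arrangement, with an 873 bp last-exon member at 166 ± 12.6 and 193 ± 20.2 (SD, n = 3; log2 -0.22, not called) beside a 1666 bp intron that rose by 1.54. The member's coefficient was -0.49 (within-gene test, adjusted p = 0.0182). The TIMM17B stretch had 10.2, 5.67 and 17.7 normalised counts with AGI24512 and 76.0, 49.5 and 58.2 with DMSO. Its log2 change of -2.41 ± 0.33 was the largest fall of any MTAP-null member. An 86 bp intron of the gene changed by 0.10 ± 0.29, and the member's coefficient was -0.77 (within-gene test, adjusted p = 0.0487).

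In HILPDA, listed with LOC102724660, a 1119 bp member fell by 0.23, while the adjoining 5030 bp intron rose by 1.16. The 27 and 40 bp members downstream had 2.14 ± 1.87 and 6.99 ± 1.75 normalised counts with DMSO and 13.4 ± 6.34 and 20.3 ± 7.32 with AGI24512. Their coefficients in the within-gene test were 1.82 (adjusted p = 0.00429) and 1.02 (adjusted p = 0.0434). MRPL19 ran the other way from COA1: its 280 bp last-exon member rose by 0.58, which became -0.25 under TMM. The gene's 6474 bp member stood at -0.15 and an 8370 bp intron at -0.51. The 280 bp member's coefficient was 0.39 (within-gene test, adjusted p = 0.0311). In MTAP-WT the called member was in TMEM223, a mitochondrial protein gene, at 607 ± 19.7 and 591 ± 76.5 beside a 15649 bp intron that fell by 0.55. The TMEM223 member's coefficient was 0.32 (within-gene test, adjusted p = 0.0338). COA1 kept its within-gene call in every MTAP-null fit that left out 1 library. The call was lost in 3 such fits for SLC9B2 and in 4 each for TIMM17B and the 280 bp MRPL19 member. For the 40 and 27 bp HILPDA members it was lost in 5 and 1. In MTAP-null the number called became 11 without AGI24512 replicate 1, 2 without AGI24512 replicate 2, and 1, 3 and 2 without DMSO replicates 1, 2 and 3. In MTAP-WT it became 0 when replicate 1 or 3 of AGI24512 or replicate 3 of DMSO was left out, and 2 when replicate 2 of AGI24512 was.

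**Figure D4:**
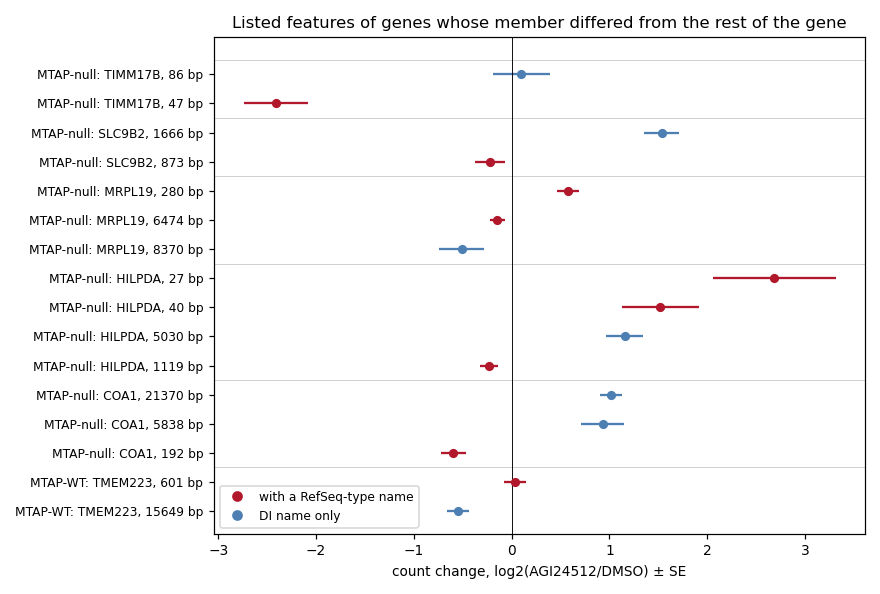
Points are log2 count changes, AGI24512 over DMSO, with standard errors, for every listed feature of the 5 MTAP-null genes and the MTAP-WT gene whose member was called in the within-gene test. Members are red and features with detained-intron names alone blue. In COA1, SLC9B2 and TIMM17B the member lies left of the other pieces, and in MRPL19 and TMEM223 it lies right of them.

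Members listed in both genotypes allow the effect of AGI24512 to be compared between MTAP-null and MTAP-WT. Over the 14, edgeR's drug-by-genotype term was called for 4, beside a background of 18.5% of the 92 features listed in both tables. Of the 14, 5 rose in both (CD44, GTF2I, MRPS16 with DNAJC9, RCC1 with SNHG3, and TAB3), where under TMM CD44 became -0.04 and GTF2I -0.28 in MTAP-null and MRPS16 with DNAJC9 became -0.01 in MTAP-WT. A further 2 fell in both, among them the 1119 bp HILPDA member, whose MTAP-null call was lost without AGI24512 replicate 2 or any 1 of the DMSO libraries. KRT8 was called in opposite directions, and ATG3 and SLC38A10 were called in neither. No matching counts over all 92 shared features are given, so these do not show whether members differed from other shared features.

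KRT8 differed most. In MTAP-null its intron had 112, 73.7 and 102 normalised counts with AGI24512 and 148, 169 and 178 with DMSO, and in MTAP-WT 227, 240 and 234 against 141, 119 and 134. The tables were scaled separately, so levels are compared within a genotype. With AGI24512 the libraries lay below DMSO in one genotype and above it in the other. The difference in log2 change was -1.59 ± 0.20 (edgeR adjusted p = 1.4e-05). RCC1 with SNHG3 went from 454 ± 18.9 to 1853 ± 220 in MTAP-null and from 491 ± 67.6 to 757 ± 67.8 in MTAP-WT (SD, n = 3), a difference of 1.40 ± 0.15 (edgeR adjusted p = 3e-06).

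PAX8-AS1 fell in MTAP-null and had 389, 456 and 460 against 485, 459 and 400 in MTAP-WT, with a difference of -0.55 ± 0.15 (edgeR adjusted p = 0.0117). RPL15, a ribosomal protein gene, had 458, 448 and 464 against 585, 553 and 589 at its 66 bp first-exon member in MTAP-null and 544, 565 and 519 against 555, 444 and 421 in MTAP-WT, a difference of -0.53 ± 0.14 (edgeR adjusted p = 0.0087). For the other 10 members the difference lay between -0.37 and 0.72 with adjusted p of 0.0875 or more. CD44 differed by 0.02 ± 0.12, with log2 changes of 0.79 ± 0.08 in MTAP-null and 0.77 ± 0.12 in MTAP-WT; under TMM these became -0.04 and 0.19.

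**Figure D5:**
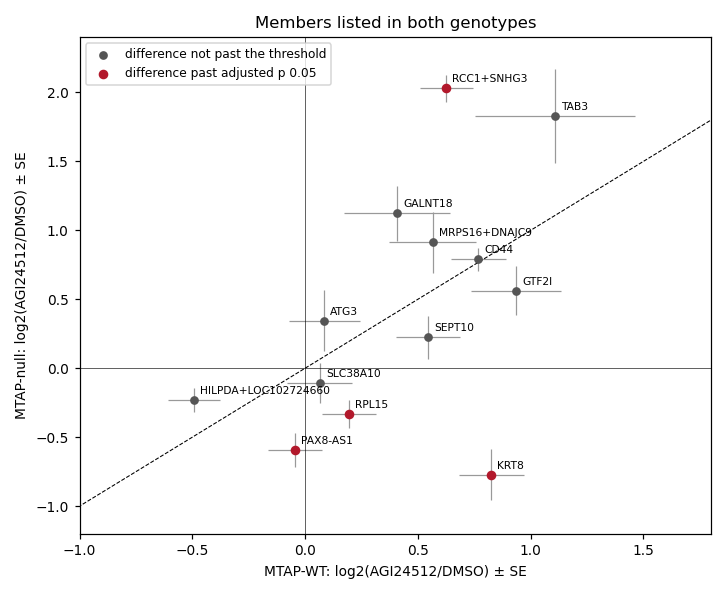
The points are 13 of the 14 members listed in both genotypes, 1 that fell in both being left out, each with its log2 count change and standard error in MTAP-WT on the horizontal axis and in MTAP-null on the vertical axis. The dashed line marks equal change. Red points are the 4 members with a called difference: RCC1 with SNHG3 lies above the line, and KRT8, PAX8-AS1 and RPL15 lie below it.

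By gene group, using lists chosen with earlier results known, no member belonged to the lists of methionine, folate and polyamine genes, PRMT5 and arginine methylation, mitosis, or DNA repair and replication in either genotype. In that order these lists held 8, 2, 9 and 12 of all listed features in MTAP-null and 1, 0, 0 and 0 in MTAP-WT. Such numbers are too small for the absence to describe members. Splicing regulators had 3 members in MTAP-null: 2 introns of RBM39, which rose by 0.84 and 0.82 and became -0.01 and -0.03 under TMM, and the 3 bp SRSF10 sliver, which fell; of all 23 listed features of that group 19 rose and 3 fell. RBM5 was the only one in MTAP-WT. Of cytosolic ribosomal protein genes, RPL15 fell in MTAP-null, as did 6 of the 8 listed features of that group while 1 rose, and its 2 adjoining stretches in MTAP-WT stood at 0.20 and 0.03 without a call. Among translation and nucleolar genes, NOP56, a core protein of box C/D small nucleolar ribonucleoproteins, had 359, 519 and 570 normalised counts with AGI24512 and 236, 292 and 282 with DMSO and rose by 0.84, which became -0.02 under TMM, while EIF5 was not called (log2 0.84 ± 0.41). EXOSC10, of the nuclear exosome, rose by 1.32 and THOC2 by 1.06, in a group where 5 of 6 listed features rose and 0 fell. SNHG7, another snoRNA host, rose by 1.12; of the 8 listed features of such hosts 5 rose and 2 fell in MTAP-null.

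The authors' rMATS tables, made from the same libraries, were searched for events of the same gene that overlap a feature. In MTAP-null, 11 members of 10 genes overlapped such an event and 0 of 1393 comparison features did. In MTAP-WT it was 1 of 42 and 0 of 216. Such events are built from exons of annotated transcripts, and the rule chose members by the names of annotated transcripts, so this contrast restates the rule at least in part. How far the rule fixes the 0 among comparison features was not tested, and no result about members is read from the contrast. The genes were CD44, DNAJC4, RAB24, ANO9, RBM39 (2 members), NOP56, ARGLU1, RALGAPA1, TAB3 and SLC35F5, and in 6 of the 11 the event and the member were the same stretch. All 11 had higher usage and rose in MTAP-null, and 5 of them also had a positive log2 change under TMM. The background over all 1549 listed features was 93.5% with higher usage and 77.6% that rose. In the authors' deposited tables, the inclusion difference of set 1 minus set 2 was positive in all 16 pairs of event and member, from 0.096 for NOP56 to 0.544 for TAB3; which treatment is set 1 is not stated, so no direction is read from it.

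CD44 had the most events, 5 in MTAP-null and 2 in MTAP-WT, each with the exon shown above as the alternative exon. That exon had 1398, 1268 and 1301 normalised counts with AGI24512 and 761, 761 and 773 with DMSO in MTAP-null, and 593, 535 and 528 against 311, 331 and 330 in MTAP-WT. The groups did not overlap in either genotype. The DNAJC4 intron had 163, 112 and 118 against 89.1, 105 and 82.6 (log2 0.51 ± 0.19, edgeR adjusted p = 0.0243; -0.31 under TMM). Without AGI24512 replicate 1, the library that stood apart, its change was 0.32 and the call was lost, as it was without DMSO replicate 1 or 3. RALGAPA1, a Ral GTPase-activating protein gene, rose by 0.50, which became -0.36 under TMM, and its call was lost in 5 of the 6 fits that left out 1 library, all but that without AGI24512 replicate 1. TAB3, an adaptor gene of the TAK1 kinase, had 19.5, 28.3 and 30.8 against 6.12, 8.74 and 6.98 in MTAP-null, and 19.3 ± 2.76 against 8.87 ± 1.93 in MTAP-WT (SD, n = 3). ANO9, of the anoctamin family, had 8, 10 and 13 raw counts against 2, 1 and 3. RAB24, a small GTPase gene, rose by 1.15 and the solute carrier gene SLC35F5 by 1.13. The RAB24 call was lost without AGI24512 replicate 3 or DMSO replicate 2, and the SLC35F5 call without AGI24512 replicate 2.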

How the data were processed

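RNA of 12 HCT116 libraries was poly-A enriched and sequenced as paired ends, per the labels' protocols; the sources used here give no aligner, build or counting method. The deposited tables hold raw read counts per feature and library, a signal (base mean of counts divided by size factors), a score per treatment (fitted usage), adjusted p-values and the log2 fold of usage, per the file headers; the authors' rMATS tables give an inclusion difference as a score and an FDR as a p-value. The log2 sign was turned so that positive means higher with AGI24512. Coordinates fit GRCh38: 1068 of 1549 and 160 of 258 features equal an intron of GENCODE 29.

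Names beginning with a RefSeq-type prefix defined members. A search for the prefix anywhere in the text would add 2 rows (MTAP-null) and 1 row (MTAP-WT) of DCXR, whose detained-intron name contains XR, so 158 and 43 became 156 and 42. Members, gene lists and tests were chosen with earlier results of these data known. Counts were tested with edgeR 4.0.16 (quasi-likelihood, R 4.3.3) over all listed features of a genotype, with Benjamini-Hochberg adjustment, no low-count filter, and size factors recovered from the base means (0.859 to 1.14 in MTAP-null, 0.953 to 1.09 in MTAP-WT). The within-gene test was edgeR's diffSpliceDGE, and the drug-by-genotype term was fitted over 12 libraries and 92 shared features. Alternatives were TMM and median-ratio scaling, DESeq2 1.42.0, a filter of 10 counts in 3 libraries, the replicate number as a block, single libraries left out, and subsets of members. On simulated counts the edgeR step recovered 71% of changes of 1 on the log2 scale in MTAP-null (1549 features) and 90% in MTAP-WT (258 features), with 9 false calls among 1349 and 5 among 208 unchanged features. Within genes it recovered 20.7% (472 MTAP-null features), and the drug-by-genotype step 83.3% (92 features). Members named in the text were the 8 largest rises and falls past the threshold with at least 50 mean normalised counts and no overlap of groups, all members shared by both genotypes, the 5 widest and 5 narrowest, up to 8 called within their gene, and those in gene lists or rMATS events; no member was called against its usage direction. ZCCHC11 and the other MBD1 and KDM5C members were named after their values were seen. A few members that the rule names, and 1 sequence, are not reported here.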

Additional observations from a re-analysis of the deposited data

Results flagged for a closer look

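Among members listed in both genotypes, 4 had an AGI24512 effect that differed between MTAP-null and MTAP-WT in edgeR's drug-by-genotype test over 92 features. The difference in log2 change, MTAP-null minus MTAP-WT, was -1.59 for KRT8, 1.40 for RCC1 with SNHG3, -0.55 for PAX8-AS1 and -0.53 for RPL15. For KRT8 the 3 AGI24512 libraries lay below DMSO in MTAP-null and above it in MTAP-WT. Over the alternatives, adjusted p ran from 5.45e-12 to 0.00144 for KRT8, from 1.42e-14 to 0.00144 for RCC1 with SNHG3, from 0.0051 to 0.0525 for PAX8-AS1 and from 0.000467 to 0.0641 for RPL15. PAX8-AS1 missed the threshold without MTAP-null DMSO replicate 2 (-0.46, edgeR adjusted p = 0.0514) and with the replicate number as a block (adjusted p = 0.0525), and RPL15 missed it under TMM scaling (-0.48, adjusted p = 0.0641). Genotype and any batch cannot be told apart from the labels.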

How the results depend on the processing

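Of 1083 alternatives tried over 88 named results, 922 kept direction and side of the threshold, 86 lost the threshold, 17 gained it and 58 changed sign; without the 2 other scalings these were 860, 48, 7 and 10 of 925. Members that rose numbered 101 in MTAP-null and 21 in MTAP-WT. With TMM scaling they were 20 and 6, with median-ratio scaling 18 and 6, among features with the authors' adjusted p under 0.01 they were 63 and 11, and among members with an NM or NR name 32 and 11. Members that fell, 19 and 9, became 46 and 19 with TMM and 50 and 19 with median ratios. They became 11 and 7 under the stricter p, and 9 and 3 with NM or NR names. With such names, higher usage stood at 71.4% in MTAP-null and 70.0% in MTAP-WT. The scalings are computed on the listed features alone, and the subsets hold fewer members. Called shares over all listed features are not given for these alternatives, so the counts do not set members apart from the rest. With 1 library left out, rises ran from 89 to 104 and falls from 16 to 20 in MTAP-null, and from 18 to 22 and 9 to 10 in MTAP-WT. Calls within a gene ran from 1 to 11 in MTAP-null and from 0 to 2 in MTAP-WT, and drug-by-genotype calls from 3 to 4. Without both replicate 1 libraries, an alternative chosen after seeing the data, 102 rose and 18 fell in MTAP-null and 19 and 9 in MTAP-WT.

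The replicate numbers do not pair the libraries: same-numbered deviations correlated at 0.28, 0.14 and -0.04 in MTAP-null and at -0.37, -0.34 and 0.03 in MTAP-WT. With the replicate number as a block, 103 members rose and 19 fell in MTAP-null, 21 and 9 in MTAP-WT, 6 and 0 were called within their gene, and 3 drug-by-genotype terms were called.

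These MTAP-null log2 changes turned negative, given under TMM and then under median ratios: ABLIM1 -0.47 and -0.50, ATG3 -0.51 and -0.54, CD44 -0.040 and -0.069, DNAJC4 -0.31 and -0.34, EIF5 -0.0077 and -0.044, the 692 bp GTF2I member -0.28 and -0.31, the 280 bp MRPL19 member -0.25 and -0.28, NOP56 -0.020 and -0.056, RALGAPA1 -0.36 and -0.39, RBM39 at 375 bp -0.015 and -0.051, RBM39 at 226 bp -0.035 and -0.071, SEPT10 -0.62 and -0.65, TMPPE with GLB1 -0.37 and -0.40, and ZNF83 with LOC101928641 -0.042 and -0.078. In MTAP-WT they were ATG3 -0.49 and -0.51, GALNT18 -0.16 and -0.18, MRPS16 with DNAJC9 -0.0076 and -0.026, RDX -0.19 and -0.21, RIF1 -0.075 and -0.088, RPL15 at 66 bp -0.38 and -0.40, RPL15 at 56 bp -0.55 and -0.57, SEPT10 -0.032 and -0.053, SLC38A10 -0.50 and -0.52, and TMEM223 -0.53 and -0.56. Leaving out 1 library changed the sign of uncalled members: PARD3 ran from -0.13 to 0.081 in MTAP-null, and in MTAP-WT ATG3 from -0.023 to 0.14, PAX8-AS1 from -0.12 to 0.030, RPL15 at 56 bp from -0.069 to 0.091, SLC38A10 from -0.18 to 0.26 and TMEM223 from -0.048 to 0.14. Without both replicate 1 libraries PAX8-AS1 stood at 0.093 and RPL15 at 56 bp at -0.030 in MTAP-WT.

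Sequencing depth is unknown, since the tables hold listed features only. In 14 MTAP-null and 6 MTAP-WT members the mean normalised count was under 10, which limits their precision.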
